A study of Mus musculus with 7 samples.

Results

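The miRNAs described here are encoded on the Gtl2 (Meg3) to Rian side of the imprinted Dlk1-Dio3 domain of mouse chromosome 12. They are the rows of the deposited count table whose names give chromosome 12 and a start between 110.7 and 110.9 Mb (mm9), and their starts run from 110801920 to 110856515. This gave 36 of 1078 rows, which form 18 hairpins with both arms in the table. The 5p arms of miR-3070a and miR-3070b have the same sequence and the same counts, so the 36 rows hold 35 distinct miRNAs of 950 in the whole table. The small RNAs came from anti-Flag pull-downs in mouse ES (embryonic stem) cells with an Ago-null background, grown with serum and leukemia inhibitory factor, that carried Flag-tagged Ago2. There was 1 library for each of 7 groups: wild-type Ago2 (WT), the mutants Q548A, K566A, R792A_C793A, GKT_GKGT and PGKTP_AAAAA, plus a control named empty. The labels do not say how each Ago2 form was introduced, how much of it the cells made, or how many clones were used. By its title, the study is about the part that Argonaute proteins play in small-RNA asymmetry, that is, in which strand of a duplex is kept.

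As background, the Dlk1-Dio3 domain carries protein-coding genes that are expressed from the paternal copy, such as Dlk1 and Rtl1, and long noncoding RNAs with embedded miRNAs that are expressed from the maternal copy. Rtl1, a retrotransposon-derived gene needed in the placenta, is crossed on the other strand by a transcript from which miR-431, miR-433, miR-127, miR-434 and miR-136 are cut, and these miRNAs can direct cleavage of the Rtl1 mRNA. Loss of the maternal noncoding RNAs is a known mark of mouse pluripotent lines with reduced developmental potential. A miRNA hairpin is cut into a duplex of a 5p and a 3p strand. Argonaute keeps 1 strand as its guide and discards the other, and the pocket of its MID domain binds the first base of the guide. K566 and Q548 lie in that domain near the guide's 5' phosphate, and R792 and C793 lie in the PIWI domain. GKT_GKGT and PGKTP_AAAAA change residues of a MID loop next to the guide's first base, and are called the loop mutants below. That place is background too, since the sample titles name residues only.

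The mature sequences are given for the arms on which the results below turn, from RefSeq (GRCm38.p6), 5' to 3', with the seed (bases 2 to 8) in capitals. The first base is the lower-case letter before the seed.
miR-433-3p: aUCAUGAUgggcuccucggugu
miR-127-5p: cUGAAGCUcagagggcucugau
miR-127-3p: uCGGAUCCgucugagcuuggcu
miR-434-5p: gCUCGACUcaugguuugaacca
miR-434-3p: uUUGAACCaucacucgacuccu
miR-431-5p: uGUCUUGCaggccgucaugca
miR-431-3p: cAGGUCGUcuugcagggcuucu
miR-770-5p: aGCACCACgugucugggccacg
miR-770-3p: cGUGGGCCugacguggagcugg
miR-673-5p: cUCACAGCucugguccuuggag
miR-673-3p: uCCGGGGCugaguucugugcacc
miR-540-5p: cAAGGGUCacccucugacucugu
miR-540-3p: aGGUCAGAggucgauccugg
miR-341-5p: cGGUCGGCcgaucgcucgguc
miR-341-3p: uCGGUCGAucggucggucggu
miR-1188-5p: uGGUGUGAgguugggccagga
miR-1188-3p: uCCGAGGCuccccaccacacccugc
miR-370-5p: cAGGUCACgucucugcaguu
miR-370-3p: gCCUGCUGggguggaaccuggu
Of the 36 member rows, 36 matched a RefSeq mature sequence and 34 also matched the ends that the table gives, by length and spacing. The exceptions are both arms of miR-337, which are 21 bases long in the table and 22 in RefSeq, so no first base was assigned to them. No seed was shared between hairpins except between miR-3070a and miR-3070b, whose 5p arms share one seed and whose 3p arms share another. Of 7 hairpins with 1 arm that begins with C, namely miR-770, miR-673, miR-540, miR-431, miR-127, miR-341 and miR-370, the C-first arm is the 3p arm in miR-770 and miR-431 and the 5p arm in the rest.

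In the GENCODE M21 annotation (GRCm38, used for gene names and not for coordinates), Mir770 overlaps an exon of Meg3 on the same strand. Mir673, Mir493, Mir337, Mir3544, Mir540, Mir665, Mir3070a and Mir3070b lie between genes. Mir431, Mir433, Mir127, Mir434 and Mir136 lie opposite an exon of Rtl1, while Mir3071 overlaps an exon of Rtl1 on the same strand. Mir341, Mir1188 and Mir370 lie in introns of Rian on its strand. In the deposited table (mm9) the most abundant arm, miR-433-3p, is at chr12:110829991-110830012, and miR-127-3p is at chr12:110831098-110831119. Antisense pairs share bases: miR-337-5p shares 20 with miR-3544-3p, and miR-136-5p shares 20 with miR-3071-3p, as do their other arms over 19. Whether the authors' counting used strand was not stated in the labels, so values of these 8 rows are uncertain.

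Library totals, with each sequence counted once, ran from 14914048 (K566A) to 94842507 (WT) in the 6 Ago2 libraries, and the empty control held 33461. Each group being 1 library, differences have no replicate check, and no p-value was computed. Intervals are at 95% and cover counting error alone, and no molecular identifiers are named in the labels. The embryonic stem cell list (12 hairpins of the miR-290 and miR-302 clusters, 24 arms) took 59.7% (K566A) to 80.0% (PGKTP_AAAAA) of counts, with miR-302c-5p and miR-367-5p at 0 in each Ago2 library and miR-302b-5p also at 0 in K566A and PGKTP_AAAAA. Arms of 3 neural miRNA names summed to between 0.374% and 0.764% in 5 Ago2 libraries and 2.51% in K566A, with 0 of 7 arms at 0. Fibroblast or feeder arms (20) summed to between 0.0909% and 0.171% in those 5 and 0.555% in K566A. Endothelial or blood arms (6, from 3 of 4 names) summed to between 0.0186% and 0.0384% in those 5 and 0.152% in K566A. Both miR-223 arms were at 0 in each Ago2 library, and miR-196b-3p was too.

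The 35 miRNAs took 4.56% of the counts of wild-type Ago2 (95% interval 4.559 to 4.567). The share was 4.94% in Q548A, 7.55% in K566A, 3.80% in R792A_C793A, 3.62% in GKT_GKGT and 2.85% in PGKTP_AAAAA. Each Ago2 mutant's share thus lay outside the counting error of wild type, above it in K566A and Q548A and below it in the other mutants. These shares depend on 1 miRNA outside the region, miR-292-5p, which took 63.7% of wild-type counts and 21.7% of K566A counts. Among the counts left without miR-292-5p the region held 12.6% in WT, 14.2% in Q548A, 9.65% in K566A, 8.89% in R792A_C793A, 12.3% in GKT_GKGT and 9.37% in PGKTP_AAAAA, so K566A turned from the highest share to one below wild type.

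**Figure D1:**
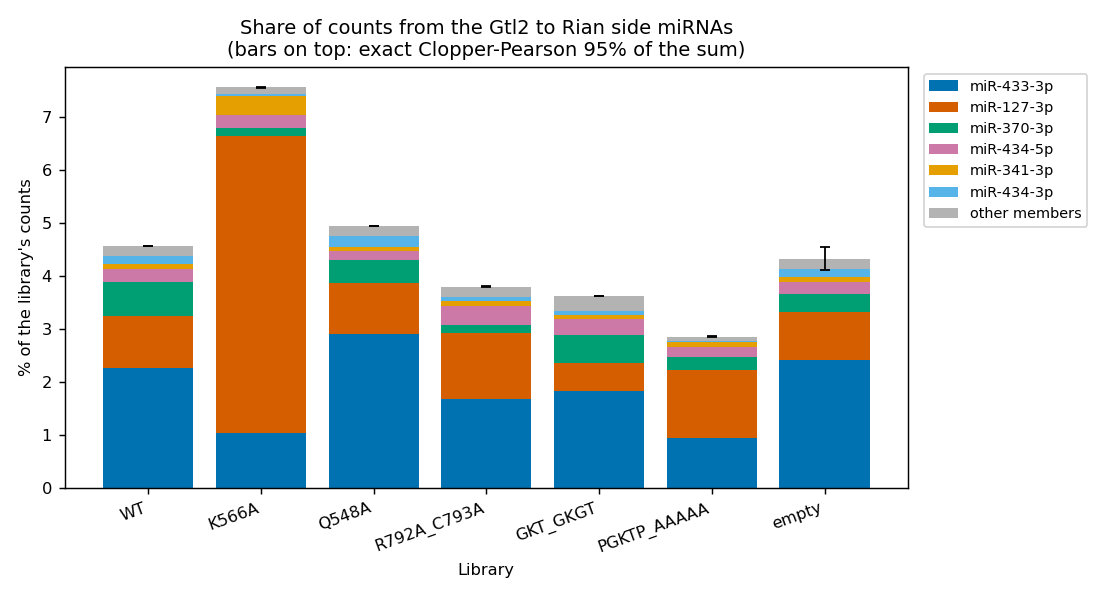
Share of each library's counts (vertical axis, percent) that came from the 35 miRNAs, split by the 6 most abundant of them. The K566A column is the tallest at 7.55%, most of it miR-127-3p, while miR-433-3p is the largest block in WT, Q548A, R792A_C793A, GKT_GKGT and the empty control.

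The region's counts came mostly from the 3p arms of miR-433, miR-127 and miR-370, which together made up between 79.5% (GKT_GKGT) and 89.9% (K566A) of them in the 6 Ago2 libraries. miR-433-3p, from the Rtl1-antisense group, stood at 22567 CPM (counts scaled to a library total of 1000000) in WT, 28949 in Q548A, 10269 in K566A, 16754 in R792A_C793A, 18259.7 in GKT_GKGT and 9455 in PGKTP_AAAAA. miR-127-3p, its neighbour and a perfect match to Rtl1, stood at 9774 CPM in WT, 9672 in Q548A, 56017 in K566A, 12525 in R792A_C793A, 5329.6 in GKT_GKGT and 12762 in PGKTP_AAAAA. The order of these neighbours was therefore not the same in each library: miR-433-3p was above miR-127-3p in WT, Q548A, R792A_C793A and GKT_GKGT and below it in K566A and PGKTP_AAAAA. As a share of the region, miR-127-3p went from 21.4% in WT to 74.2% in K566A, where miR-433-3p fell to 13.6% from 49.5%.

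miR-370-3p, from an intron of Rian, had 6551 CPM in WT, 4263 in Q548A, 1593 in K566A, 1508 in R792A_C793A, 5192 in GKT_GKGT and 2467 in PGKTP_AAAAA. Its WT level was the highest of the 6. miR-434-5p, also opposite Rtl1, had 2332 CPM in WT, 1755 in Q548A, 2421 in K566A, 3603 in R792A_C793A, 3112 in GKT_GKGT and 1899 in PGKTP_AAAAA, a narrow range beside its 3p arm. That arm, miR-434-3p, had 1621 CPM in WT and ran from 254 in PGKTP_AAAAA to 2015 in Q548A. miR-341-3p of the Rian group had 903 CPM in WT, 774 in Q548A, 3652 in K566A, 891 in R792A_C793A, 718 in GKT_GKGT and 879 in PGKTP_AAAAA, so that K566A stood apart and the other libraries lay close together.

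The remaining members whose 6-library Ago2 mean reached 10 CPM were lower. On the Gtl2 side, miR-770-3p had 696 CPM in WT, with 72.2 in K566A and 1482 in GKT_GKGT as its extremes. miR-673-5p had 294 CPM (171 in PGKTP_AAAAA to 438 in K566A) and miR-673-3p 140.0 CPM (17.6 in PGKTP_AAAAA to 462 in Q548A). Both arms of this hairpin were thus lowest in PGKTP_AAAAA but highest in different libraries. Farther along, miR-493-3p had 49.4 CPM in WT (14.0 in PGKTP_AAAAA to 108 in R792A_C793A), miR-540-3p 59.6 (6.04 in GKT_GKGT to 97.4 in K566A) and miR-665-3p 16.1 (4.69 in K566A to 23.9 in PGKTP_AAAAA). The antisense partners miR-337-5p (2.85 CPM in WT, 1.28 in Q548A to 51.6 in K566A) and miR-3544-3p (1.94 in WT, 1.02 in Q548A to 45.5 in K566A) had their lowest and highest values in the same libraries.

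Opposite Rtl1, miR-431-5p had 379 CPM in WT and ran from 120.5 in PGKTP_AAAAA to 521 in R792A_C793A. Its 3p arm had 18.2 CPM in WT and ran from 10.9 in Q548A to 157 in GKT_GKGT. The lesser arms of the abundant hairpins stayed low, miR-433-5p at 31.3 CPM in WT (6.06 in PGKTP_AAAAA to 82.7 in Q548A) and miR-127-5p at 8.66 (5.34 in Q548A to 27.6 in GKT_GKGT). For miR-136, whose rows overlap miR-3071, the 5p arm had 36.3 CPM in WT (8.45 in K566A to 64.4 in R792A_C793A) and the 3p arm 25.0 (18.4 in PGKTP_AAAAA to 49.3 in GKT_GKGT). In the Rian group, miR-1188-5p had 58.0 CPM in WT, its highest value, and 12.9 in PGKTP_AAAAA, its lowest. miR-1188-3p had 23.9 in WT (20.1 in R792A_C793A to 142 in GKT_GKGT), and miR-341-5p had 3.65 in WT (1.12 in PGKTP_AAAAA to 49.5 in K566A). These 23 members were tested against wild type. Of them miR-3544-3p, miR-337-5p, miR-127-5p and miR-341-5p were under 10 CPM in WT and passed the minimum through libraries in which they were higher.

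The other 12 members were under that mean. Their counts ran from 19 to 1533 in WT, 0 to 108 in K566A, 3 to 1021 in Q548A, 5 to 530 in R792A_C793A, 2 to 343 in GKT_GKGT and 0 to 242 in PGKTP_AAAAA. They are miR-770-5p, miR-493-5p, miR-337-3p, miR-3544-5p, miR-540-5p, miR-665-5p, the miR-3070 5p arm, both miR-3070 3p arms, both arms of miR-3071 and miR-370-5p. miR-3070a-3p was at 0 in K566A, where by its exact Poisson limit a count of 0 allows up to 0.247 CPM. miR-3070a-3p, miR-3070b-3p and miR-665-5p were at 0 in PGKTP_AAAAA, where it allows up to 0.148 CPM.

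**Figure D2:**
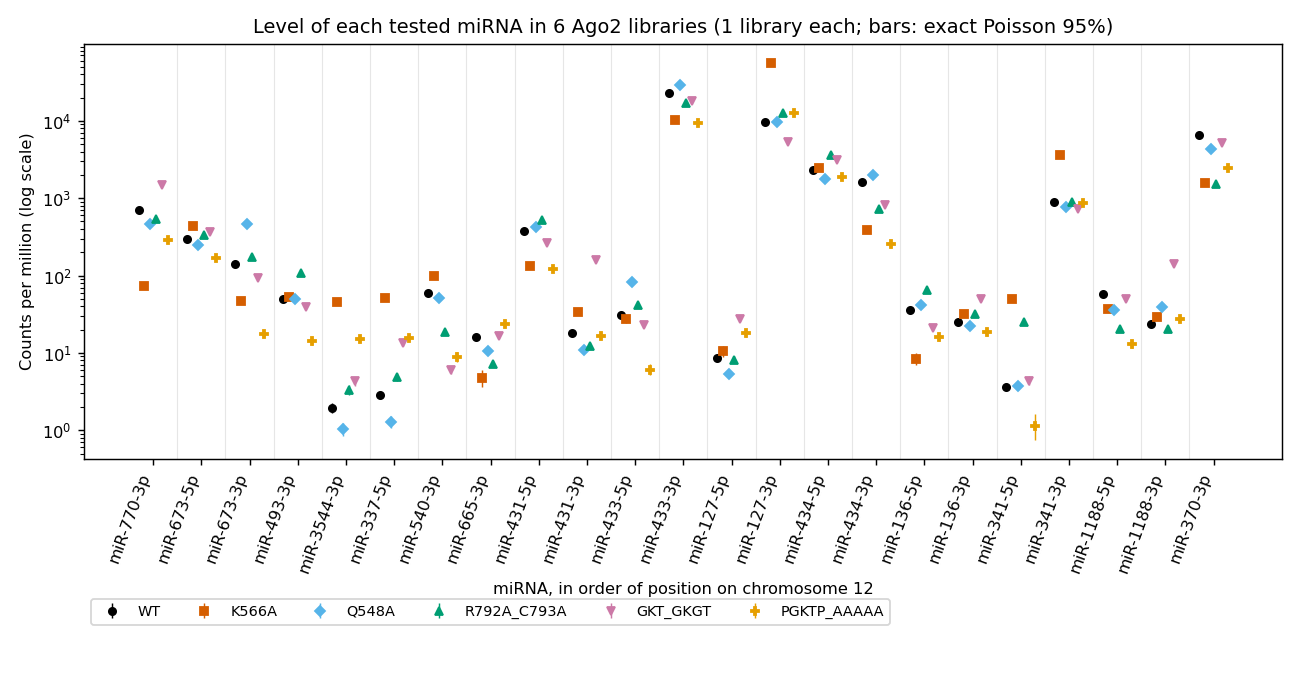
CPM on a log scale (vertical axis) of the 23 tested members in order along chromosome 12, with 1 marker per Ago2 library and exact Poisson 95% bars. miR-433-3p and miR-127-3p top the plot, and miR-127-3p at 56017 CPM in K566A is its highest point.

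In the empty control the region held 1445 of 33461 counts, or 4.32% (4.10 to 4.54). miR-433-3p gave 807 of these and miR-127-3p 301, which is 24118 and 8996 CPM. A count of 0 there allows up to 110 CPM by its exact Poisson limit, and 18 of the 35 members were at 0. The CPM of these miRNAs in WT were 22567 and 9774. The control total was far below that of each Ago2 library, and most members were not detectable at its depth.

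In wild-type Ago2 the 3p arm was the more abundant in 10 of the 18 hairpins and the 5p arm in 8. Several hairpins were almost one-sided. The 5p share of a hairpin's counts was 0.139% for miR-433, 0.0885% for miR-127, 0.00917% for miR-370, 0.403% for miR-341 and 1.32% for miR-770. Others were mixed, at 59.0% for miR-434, 59.2% for miR-136, 67.8% for miR-673 and 70.8% for miR-1188. Of the 17 hairpins with first bases for both arms, the more abundant arm began with A in 8, U in 5, C in 2 and G in 2, against 21.4%, 52.1%, 17.1% and 9.29% of the major arms of 280 hairpins elsewhere in the table. The 8 A-first major arms count the shared miR-3070 5p sequence once for miR-3070a and again for miR-3070b. They also include miR-3544-3p, miR-3071-3p and miR-136-5p, whose rows are uncertain because they overlap others. The C-first major arms were miR-770-3p and miR-673-5p, and the G-first ones miR-434-5p and miR-370-3p. The major arm had more A or U among its first 4 bases than the minor arm in 6 of the 17, fewer in 7 and as many in 4. The 7 include both miR-3070 hairpins, and miR-3544 and miR-136 among the overlapping ones. Elsewhere these shares were 45.7%, 24.3% and 30.0% of the 280.

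Arm use was compared as the odds of 5p to 3p counts, in which library size cancels. Calls were made where the 95% interval of the odds ratio (mutant over wild type) was wholly past 2 or 0.5, and each of the 18 had at least 100 counts over the 6 Ago2 libraries. In GKT_GKGT 5 hairpins shifted to the 5p arm (11.2% of 402 hairpins in the table did) and 4 to the 3p arm (18.2%). In PGKTP_AAAAA 4 shifted to 5p (10.7%) and 4 to 3p (13.9%). K566A had 8 to 5p (18.7%) and 3 to 3p (19.2%), and R792A_C793A had 5 to 5p (11.4%) and 2 to 3p (8.71%). Q548A had 0 to 5p (6.22%) and 2 to 3p (2.99%). The counts include calls of miR-3071 to 5p in K566A, GKT_GKGT and PGKTP_AAAAA, and of miR-337 to 5p in GKT_GKGT. They also include miR-136 to 3p in K566A and GKT_GKGT. These hairpins overlap others, so their rows are uncertain, and the counts were not rerun without them. The median absolute change in log2(5p/3p) was 1.69 for the 18 hairpins and 1.19 for all in GKT_GKGT, 1.67 and 1.41 in PGKTP_AAAAA, 2.04 and 1.69 in K566A, 1.15 and 0.92 in R792A_C793A, and 0.70 and 0.68 in Q548A. All of these comparisons use the same wild-type library.

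**Figure D3:**
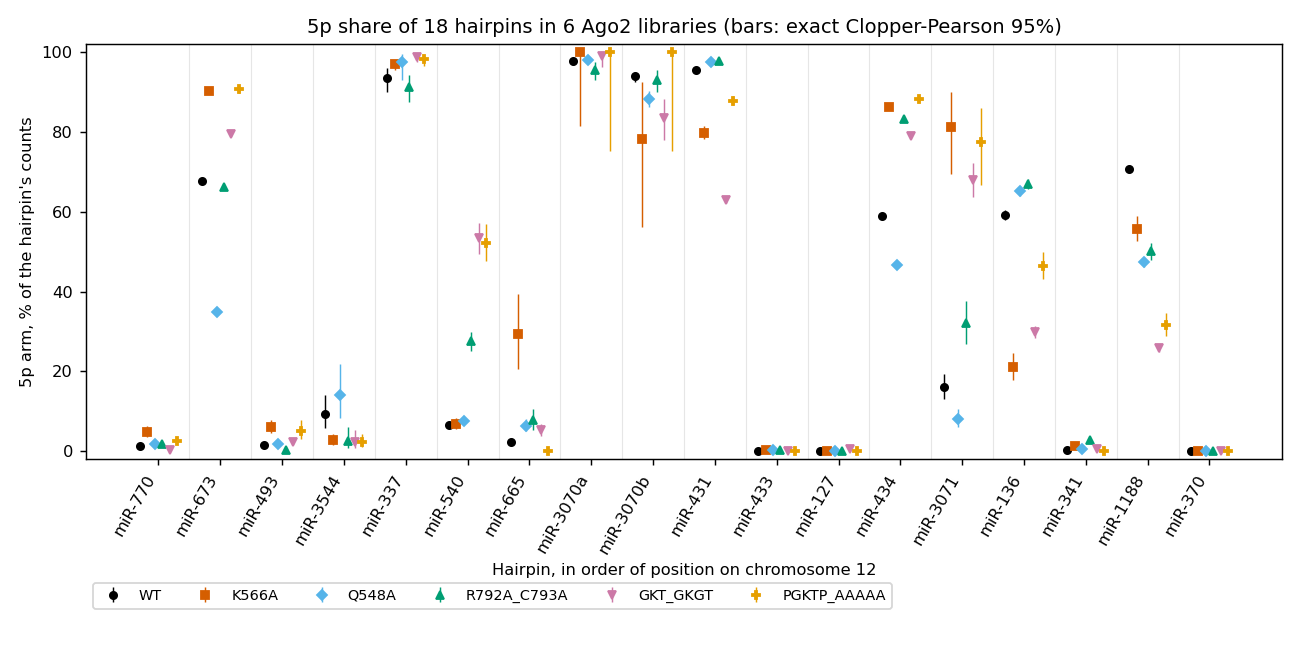
The 5p arm's percent of each hairpin's counts (vertical axis) for 18 hairpins in order along chromosome 12, with 1 marker per Ago2 library and exact Clopper-Pearson 95% bars. The miR-540 markers spread from 6.64% to 53.3% 5p and those of miR-431 from 62.9% to 97.7%, while those of miR-433, miR-127 and miR-370 lie on the baseline.

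miR-540, whose 5p arm begins with C and 3p arm with A, gave the largest shift of the region in GKT_GKGT. Its 5p share was 6.64% in WT, 7.56% in Q548A, 6.92% in K566A, 27.5% in R792A_C793A, 53.3% in GKT_GKGT and 52.3% in PGKTP_AAAAA. The loop mutants thus stood together at about equal arms, R792A_C793A in between, and WT, K566A and Q548A together near the bottom. The log2 odds ratio to WT was 4.01 (3.73 to 4.28) in GKT_GKGT, 3.94 (3.64 to 4.25) in PGKTP_AAAAA and 2.42 (2.19 to 2.64) in R792A_C793A, from 643, 463 and 1427 counts of the hairpin. In CPM, miR-540-3p was lower than WT in these 3 libraries, while miR-540-5p, under the minimum level for a test, stood at 4.24 CPM in WT, 6.91 in GKT_GKGT, 9.71 in PGKTP_AAAAA and 7.01 in R792A_C793A.

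miR-431, with a U-first 5p and a C-first 3p arm, moved to its C-first arm as well. Its 5p share was 95.4% in WT, 97.5% in Q548A, 79.8% in K566A, 97.7% in R792A_C793A, 62.9% in GKT_GKGT and 87.8% in PGKTP_AAAAA. The 3p arm gained against WT in GKT_GKGT (log2 odds ratio -3.62, -3.70 to -3.54), K566A (-2.40, -2.56 to -2.24) and PGKTP_AAAAA (-1.53, -1.69 to -1.36). In GKT_GKGT this went with a rise of miR-431-3p itself by 3.10 in log2 CPM ratio (3.03 to 3.18), while miR-431-5p changed by -0.51, which was not called.

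miR-770, with an A-first 5p and a C-first 3p arm, was nearly all 3p throughout and became more so in GKT_GKGT. Its 5p share was 1.32% in WT, 1.90% in Q548A, 4.86% in K566A, 1.75% in R792A_C793A, 0.240% in GKT_GKGT and 2.48% in PGKTP_AAAAA. The log2 odds ratio to WT was -2.47 (-2.71 to -2.24) in GKT_GKGT and 1.94 (1.51 to 2.34) in K566A, so the 2 libraries lay on opposite sides of wild type. miR-127, with a C-first 5p arm, had a 5p share of 0.0885% in WT, 0.0552% in Q548A, 0.0188% in K566A, 0.0655% in R792A_C793A, 0.516% in GKT_GKGT and 0.139% in PGKTP_AAAAA. It too was called in opposite directions in GKT_GKGT (2.55, 2.43 to 2.68) and K566A (-2.24, -2.49 to -1.99). Its U-first 3p arm remained by far the larger in each library.

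Taking the 7 hairpins with 1 C-first arm, the log2 ratio of that arm to its partner was above wild type in 7 of 7 in GKT_GKGT, with a median of 2.47, a lowest value of 0.59 (miR-341) and a highest of 4.01 (miR-540). Elsewhere in the table it was above wild type in 90.2% of 102 such hairpins, with a median of 1.81. That C-first arms gain in this library was known from the whole table, these hairpins included, before they were singled out, so their direction is not independent of it. In PGKTP_AAAAA the ratio was above wild type in 5 of 7 (median 0.66), against 73.5% of 102 (median 1.08); miR-770 (-0.93) and miR-341 (-1.64) went the other way. In K566A it was above in 5 of 7 (median 1.74; elsewhere 57.8%, median 0.24), in R792A_C793A in 3 of 7 (median -0.10; elsewhere 54.9%, 0.31) and in Q548A in 3 of 7 (median -0.54; elsewhere 27.5%, -0.36).

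miR-434 is the hairpin of the Rtl1-antisense group with a G-first 5p and a U-first 3p arm, both abundant. Its 5p share was 59.0% in WT, 46.5% in Q548A, 86.3% in K566A, 83.2% in R792A_C793A, 79.0% in GKT_GKGT and 88.2% in PGKTP_AAAAA. Every mutant except Q548A lay above wild type, and the interval was narrow even in the shallowest library, K566A (86.0% to 86.6%, from 41845 counts). The log2 odds ratio was 2.38 (2.34 to 2.42) in PGKTP_AAAAA, 2.13 (2.09 to 2.17) in K566A, 1.79 in R792A_C793A and 1.39 (1.37 to 1.41) in GKT_GKGT. It was -0.72 (-0.74 to -0.71) in Q548A, which was not called. In CPM, miR-434-3p was called lower in K566A, R792A_C793A and PGKTP_AAAAA and was at -0.97 in GKT_GKGT, while miR-434-5p was not called in any of the 5 mutants by total counts. With totals that leave out miR-292-5p, miR-434-5p was called lower in K566A (-1.05).

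miR-673, with a C-first 5p and a U-first 3p arm, was split by Q548A and the others. Its 5p share was 67.8% in WT, 35.0% in Q548A, 90.3% in K566A, 66.2% in R792A_C793A, 79.5% in GKT_GKGT and 90.7% in PGKTP_AAAAA. Q548A was the one of the 6 Ago2 libraries in which the 3p arm was the larger. The log2 odds ratio was -1.96 there, 2.21 (2.06 to 2.35) in PGKTP_AAAAA and 2.15 (2.03 to 2.26) in K566A. miR-1188, in which both arms begin with U, went the same way in all 5 mutants: its 5p share was 70.8% in WT, 47.4% in Q548A, 55.8% in K566A, 50.1% in R792A_C793A, 25.8% in GKT_GKGT and 31.7% in PGKTP_AAAAA. It was called in GKT_GKGT (-2.80, -2.90 to -2.71), PGKTP_AAAAA (-2.38, -2.59 to -2.18), Q548A (-1.43, -1.52 to -1.33) and R792A_C793A (-1.27, -1.41 to -1.13), but not in K566A (-0.94, -1.14 to -0.74).

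The Rian hairpins miR-341 and miR-370 kept their 3p guides, with small 5p shares that moved. For miR-341 the 5p share was 0.403% in WT, 0.478% in Q548A, 1.34% in K566A, 2.75% in R792A_C793A, 0.602% in GKT_GKGT and 0.128% in PGKTP_AAAAA. The change was called upwards in R792A_C793A (log2 odds ratio 2.80, 2.63 to 2.98) and K566A (1.75, 1.56 to 1.93), and downwards in PGKTP_AAAAA (-1.66, -2.27 to -1.10). For miR-370 it was 0.00917% in WT, 0.00966% in Q548A, 0.0589% in K566A, 0.0579% in R792A_C793A, 0.0206% in GKT_GKGT and 0.00976% in PGKTP_AAAAA, called in K566A (2.68, 1.72 to 3.55, from 14 counts of the 5p arm) and R792A_C793A (2.66, 2.08 to 3.24, from 49). With the wild-type library thinned to the depth of the mutant's, the K566A call of miR-370 was lost and its change in log2(5p/3p) went from 2.72 to 1.61. The PGKTP_AAAAA call of miR-341 was lost too, its change going from -1.64 to -1.36.

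miR-433, the most abundant hairpin of the region, was called in none of the 5 mutants. Its 5p share lay between 0.0640% in PGKTP_AAAAA and 0.285% in Q548A, and its log2 odds ratios were between -1.11 and 1.04. The 5p share of miR-493 was 1.68% in WT, 6.02% in K566A (1.91, 1.35 to 2.45) and 0.410% in R792A_C793A (-2.05, -2.77 to -1.39), with 1.83% to 5.15% in the others, none called. miR-665, in which both arms begin with A, had a 5p share of 2.36% in WT, 29.3% in K566A from 99 counts, 6.41% in Q548A, 7.74% in R792A_C793A and 5.26% in GKT_GKGT. In PGKTP_AAAAA it was 0 of 596 counts, for which the exact 95% upper limit is 0.617%. With that 0 taken as 3 counts the odds were 4.81-fold lower than in WT, and by the exact 95% limit at least 3.70-fold lower. K566A (4.10, 3.25 to 4.92) and R792A_C793A (1.79, 1.06 to 2.53) were called the other way, the latter not with the wild-type library thinned. Thinning also added a call of miR-493 towards 5p in PGKTP_AAAAA.

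Hairpins that overlap on opposite strands are uncertain for the reason given above. miR-136 had a 5p share of 59.2% in WT, 65.1% in Q548A, 21.0% in K566A, 66.9% in R792A_C793A, 29.8% in GKT_GKGT and 46.5% in PGKTP_AAAAA, called in K566A (-2.45, -2.75 to -2.15) and GKT_GKGT (-1.77, -1.90 to -1.65). Its antisense partner miR-3071, whose 3p arm lies over the miR-136 5p arm, had 16.0%, 8.08%, 81.2%, 32.1%, 68.0% and 77.5% 5p in the same order of libraries, called in K566A, GKT_GKGT and PGKTP_AAAAA. The rows at the miR-136 5p end were thus the lower ones of both hairpins in K566A, GKT_GKGT and PGKTP_AAAAA. miR-337 was called towards 5p in GKT_GKGT (2.37, 1.13 to 3.71, from 9 counts of the 3p arm), a call lost with the wild-type library thinned, and miR-3544 was called in none. miR-3070a and miR-3070b, which share a 5p arm, had 5p shares of 97.7% and 93.9% in WT and were called in no mutant. In PGKTP_AAAAA they had 13 counts of the 5p arm and 0 of either 3p arm.

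Levels were next compared with wild type as the ratio of CPM, with calls made where its exact conditional 95% interval lay wholly above 2 or below 0.5. The median log2 ratio of the 337 tested miRNAs was 0.07 in Q548A, 0.91 in K566A, 0.43 in R792A_C793A, -0.29 in GKT_GKGT and -0.55 in PGKTP_AAAAA. Median-of-ratios scaling, a size factor taken from miRNAs with counts in each Ago2 library, would move every log2 ratio by -0.10, -0.84, -0.36, 0.18 and 0.62 in the same order.

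**Figure D4:**
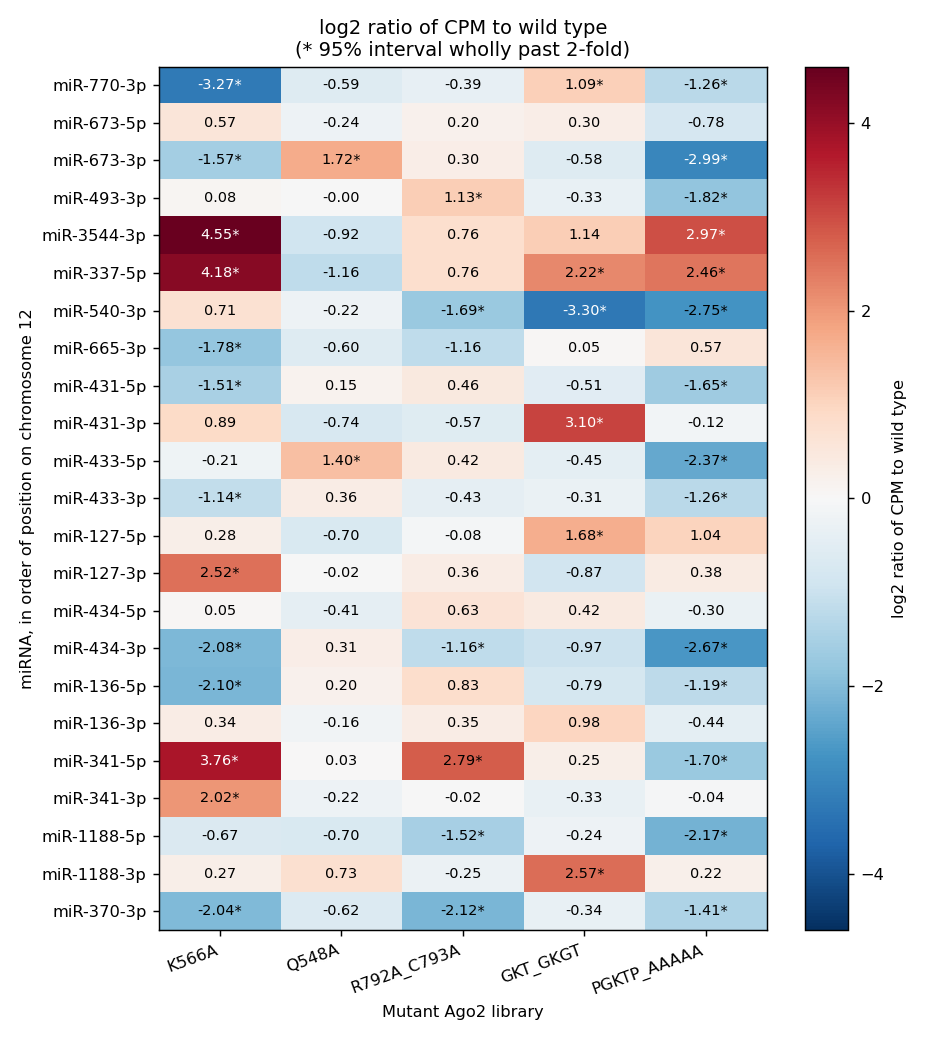
log2 ratio of CPM to wild type for 23 members (rows, in order along chromosome 12) in 5 mutants (columns), with an asterisk where the 95% interval lies wholly past 2-fold. The K566A column holds 13 asterisks, PGKTP_AAAAA 14 and Q548A 2. Those of miR-3544-3p, miR-337-5p and miR-341-5p in K566A were fixed by the minimum mean of 10 CPM, reached through K566A itself. The columns are therefore not ranked by these numbers. Of all 337 tested miRNAs, 47.5% were higher and 19.6% lower in K566A, 7.12% and 33.5% in PGKTP_AAAAA, and 1.78% and 4.45% in Q548A.

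In K566A 5 members were higher (47.5% of all tested miRNAs were) and 8 lower (19.6%), and the members' median lay 0.83 log2 units below that of all. Median-of-ratios scaling gave 5 higher (32.9%) and 9 lower (31.5%), and totals without miR-292-5p gave 4 (25.5%) and 11 (34.4%). Of the 5 higher members, miR-3544-3p, miR-337-5p and miR-341-5p reached the mean of 10 CPM through K566A itself, so that their being higher there was fixed by the minimum and nothing is read from the count of 5. With the mean taken over the other Ago2 libraries, 2 of 20 members were higher (43.8% of 317 miRNAs) and 8 lower (21.8%). These 2 were miR-127-3p, which rose by 2.52 in log2 ratio (2.51 to 2.52), and miR-341-3p, at 2.02. The miR-341-3p call was lost with totals that leave out miR-292-5p, where its log2 ratio was 0.91. The log2 ratios of the others were 3.76 (3.58 to 3.95) for miR-341-5p, 4.55 for miR-3544-3p and 4.18 for miR-337-5p. The largest falls were in miR-770-3p (-3.27, -3.36 to -3.18), miR-136-5p (-2.10), miR-434-3p (-2.08) and miR-370-3p (-2.04). miR-433-3p fell by 1.14 on the log2 scale, so the region's 2 main guides moved apart. The neural, fibroblast and endothelial or blood marker sums given above were also higher in this library. They are shares of totals that include miR-292-5p. Of the 20 fibroblast or feeder arms, 4 were at 0 in K566A, miR-214-3p among them, and 3 in WT. The part of these marker miRNAs in the members' values was not tested.

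In PGKTP_AAAAA 2 members were higher (7.12%) and 12 lower (33.5%), with a median 0.64 below that of all. Scaled by median of ratios these became 5 higher (16.3%) and 6 lower (16.9%), and with totals that leave out miR-292-5p 3 (9.50%) and 8 (25.8%). The deepest falls were in miR-673-3p (-2.99, -3.13 to -2.85), miR-540-3p (-2.75, -2.95 to -2.55), miR-434-3p (-2.67, -2.71 to -2.64), miR-433-5p (-2.37) and miR-1188-5p (-2.17), and with miR-493-3p (-1.82) these are the 6 that stayed called under both scalings. The abundant miR-433-3p (-1.26) and miR-370-3p (-1.41) were called by total counts and not by median of ratios. The 2 higher members were the antisense pair miR-3544-3p (2.97) and miR-337-5p (2.46), so without overlapping rows 0 members were higher. miR-127-3p (0.38), miR-127-5p (1.04) and miR-665-3p (0.57) were not called by total counts and were called higher with median of ratios. miR-341-3p (-0.04) was called by neither.

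In GKT_GKGT 5 members were higher (11.0%) and 1 lower (11.9%), and the median lay 0.05 above that of all. Median-of-ratios scaling gave 7 higher (12.5%) and 1 lower (8.31%). miR-431-3p (3.10), miR-1188-3p (2.57, 2.50 to 2.63), miR-127-5p (1.68) and miR-770-3p (1.09, 1.07 to 1.11) were higher, beside miR-337-5p (2.22). Of these, miR-431-3p, miR-127-5p and miR-770-3p begin with C and miR-1188-3p with U. The lower member was miR-540-3p (-3.30, -3.48 to -3.13), which begins with A. The abundant guides were not called: miR-433-3p was at -0.31, miR-370-3p at -0.34, miR-341-3p at -0.33 and miR-127-3p at -0.87. Of 5 tested C-first members 3 were higher, against 24 of 52 in the whole table with these included, and of 6 tested A-first members 1 was lower, against 21 of 71.

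In R792A_C793A 2 members were higher (15.7%) and 4 lower (6.82%), or 1 higher (5.93%) and 5 lower (12.8%) with median-of-ratios scaling, and the median lay 0.23 below that of all. miR-341-5p (2.79, 2.61 to 2.96) and miR-493-3p (1.13, 1.08 to 1.19) were higher, the latter by total counts alone and not with totals that leave out miR-292-5p. miR-370-3p (-2.12, -2.13 to -2.11), miR-540-3p (-1.69), miR-1188-5p (-1.52) and miR-434-3p (-1.16) were lower under both scalings. In Q548A 2 members were higher (1.78%) and 0 lower (4.45%), and median-of-ratios scaling gave the same counts (backgrounds 1.48% and 5.93%). They were miR-673-3p (1.72, 1.70 to 1.75), the largest ratio among the 337 miRNAs in that library, and miR-433-5p (1.40, 1.34 to 1.46). Both are U-first arms and the lesser arms of their hairpins in WT.

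A direct comparison of the 2 loop mutants put 13 members higher in GKT_GKGT than in PGKTP_AAAAA (25.5% of all tested) and 2 lower (5.93%). Median-of-ratios scaling gave 7 (16.3%) and 2 (14.8%). The largest differences were in miR-431-3p (3.23, 3.09 to 3.37), miR-673-3p (2.41), miR-770-3p (2.35) and miR-1188-3p (2.35). Lower in GKT_GKGT were miR-127-3p (-1.26, -1.27 to -1.25) and miR-3544-3p (-1.83). Among hairpins, 3 had more 5p in GKT_GKGT (8.46% of 402), namely miR-127 (1.89), miR-341 (2.24) and miR-665. For miR-665 the odds were 11.0-fold higher with the 0 in PGKTP_AAAAA taken as 3 counts. By the exact limit the miR-665 odds were at least 8.56-fold higher. Another 3 had more 3p (13.7%), namely miR-770 (-3.40, -3.71 to -3.10), miR-431 (-2.09) and miR-673 (-1.32). miR-540, which shifted alike against WT in both, differed by 0.06 (-0.29 to 0.42) between them.

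The miRNAs on the Mirg side of the same domain, 76 rows of the table with starts between 110.9 and 111.1 Mb, were taken for comparison. Their share of counts was 4.17% in WT, 4.22% in Q548A, 4.96% in K566A, 4.66% in R792A_C793A, 3.28% in GKT_GKGT and 2.28% in PGKTP_AAAAA. Without miR-292-5p it was 11.5% in WT, 12.1% in Q548A, 6.33% in K566A, 10.9% in R792A_C793A, 11.1% in GKT_GKGT and 7.49% in PGKTP_AAAAA. K566A and R792A_C793A thus turned from above wild type to below it. In K566A 19 of the 41 tested there were lower and 9 higher (19.6% and 47.5% of all miRNAs), or 24 and 7 with median-of-ratios scaling (31.5% and 32.9%). In PGKTP_AAAAA 30 of 41 were lower and 0 higher (33.5% and 7.12% of all), or 23 and 2 with that scaling (16.9% and 16.3%). In PGKTP_AAAAA their median lay 1.20 log2 units below that of all miRNAs, against 0.64 for the Gtl2 to Rian side. In GKT_GKGT 1 of 41 was higher and 9 lower there, and 5 of 23 and 1 of 23 on the Gtl2 to Rian side (11.0% and 11.9% of all). Median-of-ratios scaling gave 1 and 6 of 41, and 7 and 1 of 23 (12.5% and 8.31% of all). Of 36 Mirg-side hairpins, 16 shifted to 5p in K566A (18.7% of all) and 5 to 3p (19.2%). Their median absolute change in log2(5p/3p) there was 2.29, against 2.04 on the Gtl2 to Rian side. R792A_C793A had 8 to 5p (11.4%) and 1 to 3p (8.71%), and Q548A 1 (6.22%) and 1 (2.99%). GKT_GKGT had 3 to 5p (11.2%) and 7 to 3p (18.2%), and PGKTP_AAAAA 2 (10.7%) and 7 (13.9%). No test of these differences between the sides is possible with 1 library per group.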

How the data were processed

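The authors' deposited table holds whole-number counts per mature miRNA arm, 1 column for each of the 7 libraries (anti-Flag pull-down, Illumina HiSeq). Per the submitters' processing notes, CASAVA 1.8.2 and TopHat2 2.0.9 were used with mm9. The sources used here do not name the counter or the miRNA annotation, nor how strand and multiply matching reads were treated. Of 1078 rows, 116 were at 0 throughout. A name at several loci (64, of which 55 had equal counts) was counted once by its highest locus. Names with equal counts and a sum of at least 200 were merged (9 merged), which left 950 entries, called sequences here. Equal means within 3 counts or 1% in every library, and base sequences were not compared for the merge.

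Counts were divided by the library total (CPM). Tests took the 337 miRNAs whose 6-library Ago2 mean reached 10 CPM, and the 402 hairpins with 100 or more counts in those libraries. Ratios have exact conditional 95% intervals, and odds ratios have exact ones, or Woolf's where each of the 4 counts is at least 500. The median changes in log2(5p/3p) and the C-first comparison used a pseudocount of 0.5. Called means an interval wholly past 2 or 0.5. Both procedures were run on simulated counts that vary by counting error alone. That run cannot show how far single libraries differ, and its arm shares were not as low as those of the most one-sided hairpins. Nothing about the members is read from it. Python 3.11.15, numpy 2.4.6, pandas 2.3.3 and scipy 1.17.1 were used. 0 columns belonged to other samples.

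Members with a mean of at least 1000 CPM are given in every library, those of at least 10 CPM by wild-type value and range, the others by counts, and each hairpin by arm share. The members and lists were chosen with earlier results of these data known. With 1 library per group no p-value was computed. Alternatives were other scalings, other minimum levels, each row as deposited, thinning of the wild-type library, another pseudocount, and leaving out overlapping rows. The comparison of the loop mutants, the region share without miR-292-5p, the minimum level taken without the mutant library and the run without overlapping rows were added after the data were seen.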

Additional observations from a re-analysis of the deposited data

How the results depend on the processing

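No paired analysis was possible because each group has 1 library, and for the same reason no library could be left out of a group. No called ratio or arm change turned its sign under the alternatives run. Ratios that were not called did: in K566A 7 members changed sign with median-of-ratios scaling and 8 with totals that leave out miR-292-5p, among them miR-673-5p (0.57 to -0.27 and -0.53) and miR-540-3p (0.71 to -0.13 and -0.40). The K566A share of the region moved from above to below that of WT when miR-292-5p was left out. Counts of members called moved by more than 1.5 times as follows. With median-of-ratios scaling, R792A_C793A had 1 higher, PGKTP_AAAAA 5 higher and 6 lower, and GKT_GKGT against PGKTP_AAAAA 7 higher. With totals that leave out miR-292-5p, R792A_C793A had 1 higher (8.31% of all tested miRNAs). With no minimum CPM, K566A had 10 higher and GKT_GKGT 4 lower. With a minimum mean of 100 CPM, the numbers higher were 1 in Q548A, 2 in K566A, 0 in R792A_C793A, 1 in GKT_GKGT, 0 in PGKTP_AAAAA and 6 in GKT_GKGT against PGKTP_AAAAA. At that minimum the numbers lower were 2 in R792A_C793A, 0 in GKT_GKGT, 6 in PGKTP_AAAAA and 1 in GKT_GKGT against PGKTP_AAAAA, since fewer members were tested. With the 10 CPM mean taken without the mutant library, K566A had 2 higher, since 3 of its members were then not tested. Without the overlapping rows, K566A had 3 higher, PGKTP_AAAAA 0 higher and GKT_GKGT against PGKTP_AAAAA 1 lower. For the other moves the cause was not tested. Shares over all miRNAs are not given for no minimum, the 100 CPM minimum or the run without overlapping rows. Nothing about the members is therefore read from the counts under those settings. The region's share of counts without miR-292-5p was 12.6% in WT, 14.2% in Q548A, 9.65% in K566A, 8.89% in R792A_C793A, 12.3% in GKT_GKGT, 9.37% in PGKTP_AAAAA and 12.5% in the empty control. Counting each row as deposited, thinning the wild-type library to the mutant's total, and a hairpin minimum of 1000 counts left each count of calls within 1.5 times. Thinning took away the calls of miR-370 in K566A, miR-665 in R792A_C793A, miR-337 in GKT_GKGT and miR-341 in PGKTP_AAAAA, and thinning was not run for GKT_GKGT against PGKTP_AAAAA, whose base library is the smaller. Depth limits the members under 10 CPM, the miR-3070 hairpins in K566A and PGKTP_AAAAA, and most members in the empty control.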
